A study of Mus musculus with 12 samples.

Results

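Tbx2, Tbx3, Tbx4 and Tbx5 are 4 closely related transcription factors of the T-box family, and their transcripts were followed in mouse male germ cells before and after birth. They were taken as the rows of a gene table whose Ensembl identifier maps to one of these 4 symbols, 4 of 55487 genes. The members were chosen by measured values, the normalized counts of these 12 libraries over the stages, above all those of Tbx5 at birth, so their own levels and fold changes are a description and carry no test.

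RNA was sequenced from germ cells of the testis, called gonocytes in the labels, isolated from transgenic Mvh-Venus mice, in which a fluorescent protein driven by a germ line promoter marks these cells. There were 12 libraries in 4 stages of 3: 2 fetal stages, on embryonic days E13.5 and E16.5, and 2 stages after it, at birth (P0) and on postnatal day 3 (P3). The series concerns Morc1, a gene needed in male germ cells to silence transposons. All 12 libraries share the transgene, and titles and source names call all of them wild type (WT). The genotype tag reads Morc1 (+/-) at E13.5 and P0 and Morc1 (-/-) at E16.5 and P3. Consecutive stages therefore cross the tag, and there stage and the tagged genotype cannot be told apart. P0 set against E13.5, and P3 against E16.5, each stay within a tag. Nothing in the labels says whether the libraries of a stage came from separate animals, so errors and tests measure the spread between these libraries only, which may be technical.

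T-box factors bind DNA through a conserved domain, the T-box. Tbx2 and Tbx3 act mostly as repressors and are known for holding back cell cycle inhibitors and heart chamber genes. Tbx4 and Tbx5 act mostly as activators, Tbx4 in the hindlimb bud, allantois and lung, Tbx5 in the forelimb bud, heart and lung. Tbx3 is also known in embryonic stem cells, where it is part of the naive pluripotency network.

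The 4 genes lie as 2 linked pairs. On GRCm38, Tbx2 (ENSMUSG00000000093) lies at chr11:85832551-85841948 on the plus strand and Tbx4 (ENSMUSG00000000094) at chr11:85886422-85916097 on the same strand, 44.5 kb further on. Tbx3 (ENSMUSG00000018604) lies at chr5:119670669-119684724 and Tbx5 (ENSMUSG00000018263) at chr5:119832668-119885219, both on the plus strand and 148 kb apart. Each pair holds a mostly repressing and a mostly activating factor.

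How alike the members are matters here because reads of a gene could be counted for its relative. The 90 coding bases below are the stretch most alike in Tbx2, Tbx3 and Tbx5, and they are shown for that reason. In lower case are the 66 positions at which these 3 genes have the same base, and in capitals the 24 at which at least 1 differs. The stretch joins exons 3 and 4 of Tbx2 (chr11:85835892-85837092), exons 4 and 5 of Tbx3 (chr5:119675655-119677540) and exons 6 and 7 of Tbx5 (chr5:119845068-119853568), all on the plus strand of GRCm38 with the intron left out.
Tbx2: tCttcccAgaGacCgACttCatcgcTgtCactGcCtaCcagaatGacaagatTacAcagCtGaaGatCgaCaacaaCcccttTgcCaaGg
Tbx3: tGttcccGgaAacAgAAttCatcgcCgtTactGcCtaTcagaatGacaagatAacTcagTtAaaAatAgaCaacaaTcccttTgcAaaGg
Tbx5: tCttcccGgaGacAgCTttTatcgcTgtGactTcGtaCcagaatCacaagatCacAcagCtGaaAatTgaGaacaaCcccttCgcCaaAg

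Along their aligned coding sequences no pair of members was identical over more than 23 bases in a row, a run shared by Tbx4 and Tbx5. Over the aligned bases, Tbx2 and Tbx3 were 63.5% identical and Tbx4 and Tbx5 63.7%. The other 4 pairs were 47.7% to 52.3% identical, so each member was most alike to the other factor of its kind and less alike to its neighbour on the chromosome. No word of 50 bases occurred in more than 1 of the members. Tbx3 shared 1.28% of its words of 50 bases with Tbx3os1, an antisense gene at its start, and Tbx5 shared 0.368% of its words with other genes.

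Germ cell markers were read in all libraries, and markers of somatic cells were read as well, as given further on. Reads in genes numbered 40946616 to 51533747 per library. All 6 germ cell markers (Ddx4, Dazl, Mael, Tdrd1, Nanos2 and Nanos3) had reads in all 12 libraries, with summed normalized counts of 212631 to 225330 at E13.5, 170785 to 189017 at E16.5, then 129922 to 138653 at P0 and 218304 to 235450 at P3. A normalized count is a read count divided by the size factor of its library. The sum hides single markers. On the log2 scale of normalized count + 1, from E16.5 to P0, Nanos2 changed by -5.65 and Nanos3 by -5.36. Ddx4, Mael and Tdrd1 changed by -1.21 to -0.76 and Dazl by 0.72. Size factors were 1.84 to 2.07 at P0 and 0.919 to 1.26 elsewhere, so levels at P0 depend most on the scaling. Morc1, the gene of the genotype tag, read 28328 to 32917 normalized counts in the E16.5 libraries tagged Morc1 (-/-) and 1621 to 1830 in the E13.5 libraries tagged Morc1 (+/-). The libraries labelled Morc1 (-/-) at E16.5 thus held far more Morc1 reads than those labelled Morc1 (+/-) at E13.5. A whole-gene count does not show whether a deleted part was read.

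Tbx4, the hindlimb and lung activator, was the most abundant of the 4 at E13.5 and was lower after it. Its normalized counts were 2116, 2020 and 2169 at E13.5 in libraries 1, 3 and 4, and 657, 796 and 752 at E16.5. At P0 they read 761, 730 and 725, and at P3 they read 222, 196 and 276. The E13.5 libraries were thus all above the other 9, the P3 libraries all below, and the E16.5 and P0 libraries overlapped. On the log2 scale of normalized count + 1, Tbx4 was 1.52 lower (SE 0.12) at E16.5 than at E13.5, a log2 fold change of -1.52. The change from E16.5 to P0 was 0.01 (SE 0.12), and its sign turned negative under the poscounts size factors (-0.019) and when E16.5 library 1 (-0.067) or P0 library 1 (-0.0097) was left out. It was 0.27 with median-of-ratios factors and 0.67 with equal library totals. From P0 to P3 it was -1.68 (SE 0.12).

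Tbx2, a repressor, had a low level in the fetal stages and its highest level at birth. Its normalized counts were 66.5, 88.1 and 65.2 at E13.5, and 138, 94.8 and 124 at E16.5. At P0 they read 423, 449 and 527, and at P3 they read 178, 167 and 156. No stage overlapped with another, and the order was E13.5, E16.5, P3 and P0 from low to high. The log2 fold changes were 0.69 (SE 0.19) from E13.5 to E16.5, 1.97 from E16.5 to P0 and -1.47 from P0 to P3. The means were 119 ± 22.2 at E16.5 and 167 ± 11.2 at P3 (SD, n = 3).

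Tbx3, the second repressor, started far lower than Tbx2 and stayed high after birth. Its normalized counts were 14.8, 10.9 and 8.41 at E13.5, and 47.7, 31.6 and 43.5 at E16.5. At P0 they read 308, 263 and 318, and at P3 they read 219, 181 and 286. The P0 and P3 libraries overlapped, since P3 library 4 lay above P0 library 3. The log2 fold changes were 1.78 (SE 0.27) from E13.5 to E16.5, 2.84 from E16.5 to P0 and -0.39 from P0 to P3. The last of these was -0.83 with median-of-ratios factors and -1.23 with equal library totals. Relative to its E13.5 mean of 11.4 ± 3.21, Tbx3 was 26.1-fold higher at P0 (296 ± 29.2, SD, n = 3).

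Tbx5, the forelimb and heart activator, was read mainly at birth. It had no read in any E13.5 library, and 27.7, 20.5 and 9.50 normalized counts at E16.5. At P0 it had 472, 403 and 416 normalized counts. At P3 library 1 had 4.85, from 5 reads, and libraries 3 and 4 had none. The 3 P0 libraries thus stood above the other 9 with a wide gap, and the E16.5 libraries stood above all those of E13.5 and P3. Summed over the 3 libraries of a stage, 2507 reads at P0 and 63 at E16.5 gave a ratio of 23.1 after scaling, with a 95% interval of 18.0 to 30.2 that covers counting error only. The 2507 reads at P0 against 5 at P3 gave a ratio of 261 (112 to 806), and the 63 reads at E16.5 against 5 at P3 gave 11.3 (4.60 to 36.0). Against the floor of 3 reads per library at E13.5, Tbx5 was at least 6.01-fold higher at E16.5 and at least 134.7-fold higher at P0. The fitted log2 fold changes were 4.53 (SE 0.60) from E16.5 to P0 and -7.90 from P0 to P3, and -8.75 without P3 library 1, the library that held all 5 reads.

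**Figure D1:**
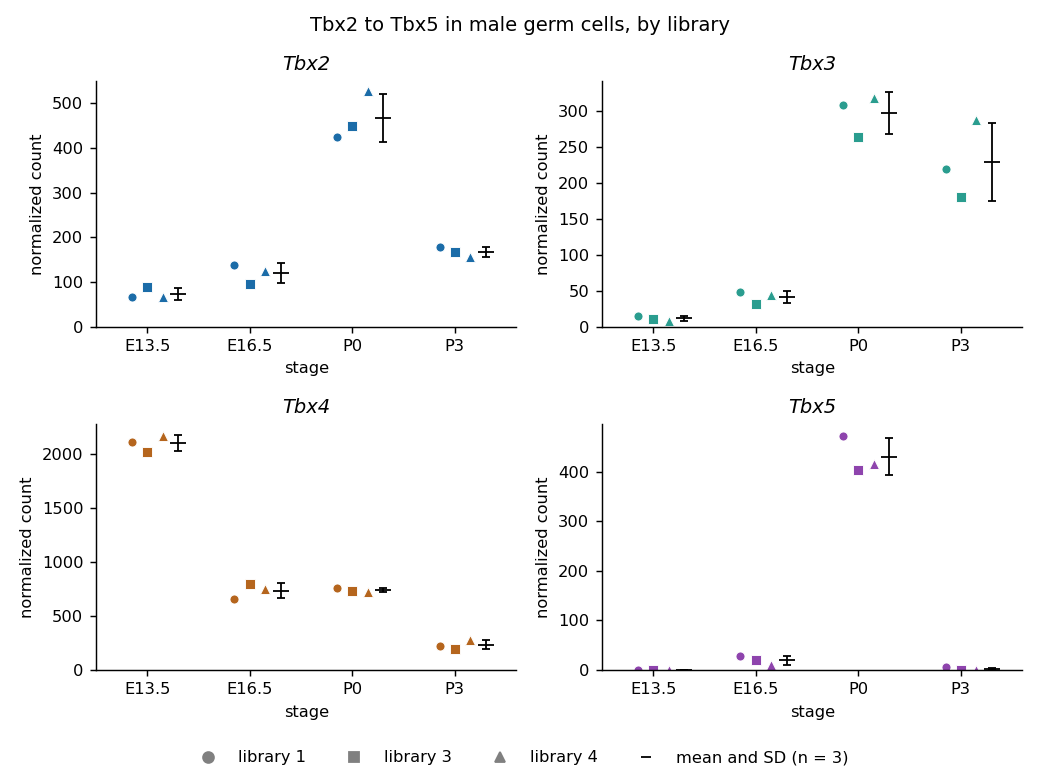
Normalized counts (linear vertical axes that start at 0, scaled per gene) of Tbx2, Tbx3, Tbx4 and Tbx5 at the 4 stages, with a point per library and a bar for mean and SD of 3. Tbx2, Tbx3 and Tbx5 are highest at P0, with the P3 libraries of Tbx3 reaching into its P0 range, while Tbx4 is highest at E13.5.

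Side by side, 3 of the 4 members had their highest mean at P0 and 1 at E13.5, and Tbx2, Tbx3 and Tbx5 had their lowest mean at E13.5. The 3 libraries of the highest stage stood above the other 9 for Tbx2, Tbx4 and Tbx5, against 66.4% of all genes tested. Of the 22384 genes that reached 10 normalized counts in 3 or more libraries, 29.9% were highest at P0 and 30.7% at E13.5, and 41.1% were lowest at E13.5. All 4 members passed this filter, Tbx2 and Tbx4 with 12 libraries at 10 or more, Tbx3 with 11 and Tbx5 with 5. Tbx5 passed through its P0 libraries and 2 others, so its difference between stages is tied to the filter.

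Most genes differed between these stages, which is the background for the members. From E13.5 to E16.5 all 4 members had no overlap between the stages, against 80.2% of all genes tested. From E16.5 to P0 it was 3 of 4 against 69.5%, with Tbx4 the exception. From P0 to P3 it was 3 of 4 against 81%, with Tbx3 the exception. These shares are the setting of the counts, and no more is read from them since the stages were used in choosing the genes.

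Within a genotype tag the members also differed between stages. From E13.5 to P0 the log2 fold changes were 2.66 for Tbx2 and 4.62 for Tbx3. Tbx4 had -1.51 (SE 0.12), and all 4 members had no overlap, against 88.1% of genes. From E16.5 to P3, Tbx3 had a log2 fold change of 2.45 (SE 0.27) and Tbx2 of 0.50 (SE 0.19), both higher at P3. Tbx4 had -1.67 and Tbx5 -3.37, the latter -4.22 without P3 library 1, and again no member overlapped, against 71.6% of genes.

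Set per length of exon, so that genes can be compared with each other, the make-up of the group turned over. Per kb of exon, Tbx4 had 618 ± 22.3 normalized counts at E13.5, and Tbx2 had 20.2 ± 3.55, Tbx3 1.71 ± 0.484 and Tbx5 0 (SD, n = 3). Tbx4 then made up 96.6% ± 0.662 of the summed level per kb of the 4 genes. Its share was 83.2% ± 3.96 at E16.5, then 45.0% ± 1.73 at P0 and 45.5% ± 2.61 at P3. The share of Tbx2 was 3.17% at E13.5, 12.8% at E16.5, then 26.6% at P0 and 31.3% at P3. That of Tbx3 was 0.268%, 2.40%, 9.25% and 23.0% at the same stages. Tbx5 held 19.1% ± 1.44 at P0 and 0.233% ± 0.403 at P3. At P3 the other 3 genes lay closer to each other than at any earlier stage, with 46.1 ± 3.09 for Tbx2, 34.5 ± 8.08 for Tbx3 and 68.1 ± 12 for Tbx4 per kb. These shares are ratios within a library and do not depend on its size factor.

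**Figure D2:**
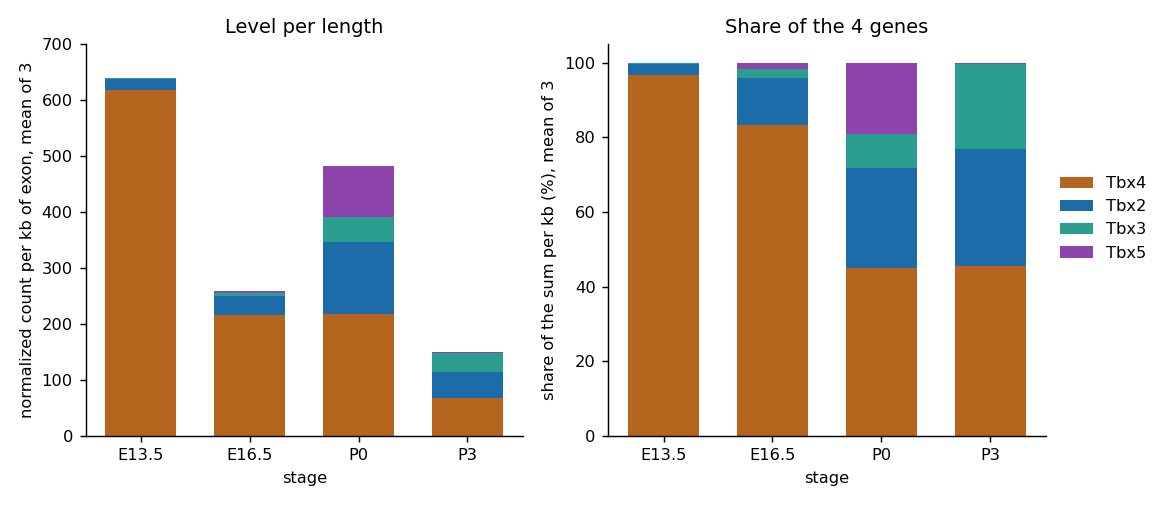
Stacked bars of the mean normalized count per kb of exon (left) and of the mean share of the sum over the 4 genes in percent (right), each the mean of 3 libraries at a stage. Tbx4 makes up 96.6% at E13.5 and 45.0% at P0, where Tbx5 holds 19.1%.

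The summed level per kb of the 4 genes was 640 ± 18.9 normalized counts at E13.5, 259 ± 13.0 at E16.5, then 483 ± 16.1 at P0 and 149 ± 18.2 at P3. Tbx4 at E13.5 lay above 80.4% of the 22364 tested genes with an annotated exon length, per kb. Tbx2 at P0 lay above 65.3%, Tbx5 at P0 above 59.0% and Tbx3 at P0 above 44.4% of them. None of the members was among the most abundant transcripts of these cells, and Tbx5 was at a middle level at its highest.

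Markers of several testis somatic cell types and of mast cells had their highest mean sum at P0, as the plot of marker lists by library shows in part. The sums of other cell types did not, though some of their markers rose from E13.5 to P0 when taken singly. The summed normalized count of 6 peritubular and smooth muscle markers (Acta2, Myh11, Cnn1, Actg2, Des and Tagln) was 173 to 229 at E13.5, 1464 to 2227 at E16.5, then 4839 to 5432 at P0 and 945 to 1106 at P3. That of 8 interstitial mesenchyme markers was 155 to 249 at E13.5, 1548 to 1740 at E16.5, then 3195 to 3453 at P0 and 1619 to 2111 at P3. Of these 8, limma called 6 higher and 0 lower from E16.5 to P0 (27.6% and 33.4% of all genes). From P0 to P3 it called 0 higher and 4 lower (40.1% and 36.4%). Pdgfra had a log2 fold change of -0.35 from E16.5 to P0, and Dcn of 0.40 from P0 to P3. None of the 14 peritubular, smooth muscle and mesenchyme markers was at 0 throughout a stage. Of the 6 peritubular and smooth muscle markers, 5 passed the filter and Tagln did not. At E13.5, 3 of the 6 had a mean of at least 10, and at each later stage 5 did. The 6 Sertoli markers summed to 2658 to 3727 at E13.5, 2169 to 3929 at E16.5 and 2282 to 2851 at P3, with 3863 to 7651 at P0. The 6 Leydig markers summed to 730 to 939 at E13.5, 812 to 8184 at E16.5 and 1494 to 7281 at P0, and at P3 to 499 to 527 with Insl3 at 0. The 6 mast cell markers summed to 81.3 to 99.0 at E13.5, where 5 of them were at 0, 241 to 310 at E16.5, 549 to 762 at P3 and 1650 to 3368 at P0. Endothelial markers had their highest mean sum at E13.5, 4728 against 1232 at P0, and so had mesothelium markers, 2074 against 256. Taken singly from E13.5 to P0, Pecam1 fell (log2 fold change -3.16), while Cdh5, Kdr, Tek and Emcn rose (2.24, 4.97, 2.18 and 7.07). Among mesothelium markers Lrrn4 fell (-5.69), Upk3b and Upk1b rose (3.28 and 3.45) and Msln had 0.31. Mesonephric or rete epithelium markers summed to means of 3859 at E13.5 and 3795 at P3 against 865 at P0. This sum hides single markers too. From E13.5 to P0 Lhx1 fell (-5.003), Pax2 and Pax8 rose (4.13 and 4.45), and Cdh16 and Wfdc2 had 1.44 and 0.08. From P0 to P3 Lhx1 rose (4.78), Pax2 and Cdh16 fell (-3.61 and -3.59), and Pax8 and Wfdc2 had -0.35 and 0.30. Macrophage marker sums were highest at E16.5, 1051 against 236 at P0, and red blood cell markers had means of 1978 at E16.5 and 1914 at P0. Among macrophage markers Cd68 fell from E16.5 to P0 (-4.58) and Lyz2 rose (4.38), and Csf1r and Adgre1 had -0.79 and 0.57. The peritubular, smooth muscle and mesenchyme sums were thus highest at P0 and lowest at E13.5, as the means of Tbx2, Tbx3 and Tbx5 were. The part of these cells in the levels of the members was not tested. In bulk RNA, fewer cells of a type and less RNA per cell cannot be told apart.

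Within the 3 P0 libraries the members varied little. The highest P0 library was 1.24 times the lowest for Tbx2, 1.21 times for Tbx3, 1.05 times for Tbx4 and 1.17 times for Tbx5. The same ratio was 4.87 for the Leydig markers, 2.73 for the macrophage markers, 2.04 for the mast cell markers, 1.98 for the Sertoli markers and 1.57 for the red blood cell markers. It was 1.18 for the endothelial markers, 1.12 for the peritubular and smooth muscle markers, and 1.08 for the mesenchyme and the mesothelium markers. For the germ cell markers it was 1.07, and for the mesonephric or rete epithelium markers 1.02.

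**Figure D3:**
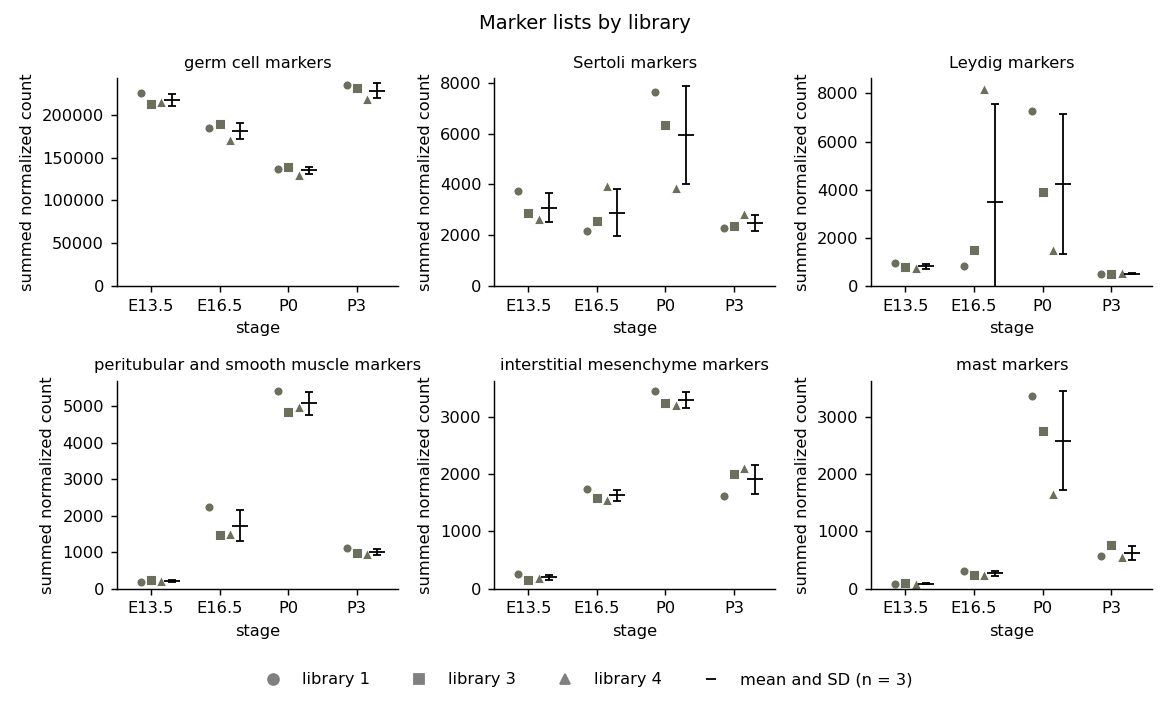
Summed normalized counts of 6 marker lists (linear vertical axes that start at 0, scaled per list; error bars are cut off at 0) for each library, with mean and SD of 3 per stage. Peritubular and smooth muscle sums lie between 4839 and 5432 at P0, above the other stages, and germ cell sums are lowest there.

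On the deposited scale, the protein-coding genes on either side of each linked pair did not have their highest mean at P0. Around Tbx2 and Tbx4 these are Bcas3 before and Brip1, a DNA repair helicase, after. Bcas3 had a mean of 28720 normalized counts at E16.5 and 7404 to 8713 at the other stages. Brip1 had 2953 ± 157 at E13.5, 760 ± 24.0 at P0 and 2994 ± 163 at P3. Bcas3 was thus highest at a stage where neither linked member was, and the lowest mean of Brip1 was at P0, with overlap between its P0 and E16.5 libraries. Around Tbx3 and Tbx5, Med13l, a Mediator kinase module subunit, rose from 1198 ± 68.7 at P0 to 2141 ± 161 at P3 (limma adjusted p = 1.03e-05), though the sign of this change turned with equal library totals. Rbm19, an RNA-binding protein of ribosome assembly, had its lowest mean at P0, 440 ± 111 against 1074 ± 47.4 at E16.5 (limma adjusted p = 1.98e-07). Between Tbx2 and Tbx4 lies Gm11444, a protein-coding gene with few reads and below the filter. It was highest at P0, with normalized counts of 2.09, 5.98 and 6.76 there and 0 to 1.86 in the other 9 libraries.

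A noncoding gene beside Tbx5 was also read mainly at birth. Gm43050 is annotated on the minus strand, 748 bases before the start of Tbx5. It had no read at E13.5, 1.91, 0 and 0 normalized counts at E16.5, 34.5, 49.4 and 38.1 at P0. At P3 it had 0, 1.96 and 0. All P0 libraries were above all others, and the gene was at least 15.2-fold higher at P0 than at E16.5 and at least 13.7-fold higher than at P3. With limma, adjusted p was 1.31e-06 and 7.30e-07 for these changes, against a background of 27.6% of all genes higher from E16.5 to P0 and 36.4% lower from P0 to P3. Only its P0 libraries reached 10 normalized counts, so Gm43050 passed the filter through them. Both p-values are therefore tied to the filter, and nothing is concluded from them.

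Tbx3os1, on the strand opposite to Tbx3, overlaps it by 697 bases. It had no read at E13.5, and 24.0 ± 1.62 normalized counts at E16.5, then 45.1 ± 4.38 at P0 and 3.64 ± 2.49 at P3. Tbx3 stayed high at P3, where Tbx3os1 fell by 3.49 on the log2 scale from P0 (limma adjusted p = 3.54e-06). The strand setting of the counting is not given in the sources used here, so reads in the overlap cannot be told apart between these genes. Tbx3os2 had 13.7 ± 6.83 at P0 and 9.32 ± 7.76 at P3 and did not pass the test between them (adjusted p = 0.389).

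The other 13 T-box genes give the family setting, and 8 of them had their highest mean at P0, against 29.9% of all genes tested. Of the 13 genes, 11 passed the filter. From E13.5 to E16.5, 9 rose and none fell (of all genes tested, 45.5% rose and 34.6% fell), with a median log2 fold change of 3.17 against 0.31 over all genes. From E16.5 to P0, 5 rose and 1 fell (27.6% and 33.4% of all genes), with a median of 0.86 against -0.01. From P0 to P3, 3 rose and 7 fell (40.1% and 36.4% of all genes), with a median of -2.995 against 0.05. With equal library totals the counts were 10 higher and none lower from E16.5 to P0, and 1 higher and 10 lower from P0 to P3, over 12 genes tested. Of all 23221 genes tested on that scale, 12743 were higher and 3443 lower from E16.5 to P0. The list median was then 1.61 against 0.68 over all genes, and -3.55 against -0.86 from P0 to P3.

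Tbx1, the gene of pharyngeal arch development, was highest at P0, as Tbx2 was. It had 119 ± 11.9 normalized counts at E13.5, 176 ± 37.6 at E16.5, then 732 ± 56.5 at P0 and 92.4 ± 21.3 at P3 (SD, n = 3). From E16.5 to P0 it rose by 2.07 on the log2 scale (SE 0.20, limma adjusted p = 1.25e-07) and from P0 to P3 it fell by 2.995 (adjusted p = 5.88e-10). Tbx18, known from epicardium and ureter mesenchyme, had 1.43 ± 1.24 at E13.5, 104 ± 12 at E16.5, then 371 ± 52.7 at P0 and 40.0 ± 15.4 at P3. Its E16.5 level was at least 32.5 times that of E13.5, where its libraries were at the floor.

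Other family members differed in when they appeared. Tbx19, a factor of pituitary corticotrophs, had 2.11 ± 2.11 at E13.5 and already 502 ± 132 at E16.5, and 894 ± 60.2 at P0. From P0 to P3 it fell by 4.73 on the log2 scale (limma adjusted p = 6.99e-08), to 35.0 ± 16.7. Its change from E16.5 to P0 did not pass the test (0.86 on the log2 scale, limma adjusted p = 0.113), and ran from 0.83 to 1.52 over 6 alternatives, 4 of which called it higher. T, the founding mesoderm factor also called brachyury, had 58.9 ± 10.8 at E13.5 and 651 ± 134.5, 603 ± 71.5 and 511 ± 23.6 at the later stages. Eomes, a factor of mesoderm and trophoblast, was highest at P3 with 750 ± 93.0 against 218 ± 17.6 at P0, a rise of 1.77 on the log2 scale (adjusted p = 2.82e-08). Mga, the partner of Max with a T-box, was at 1988 to 2991 as a mean in every stage. Its fall from E16.5 to P0 by 0.48 turned sign with equal library totals.

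**Figure D4:**
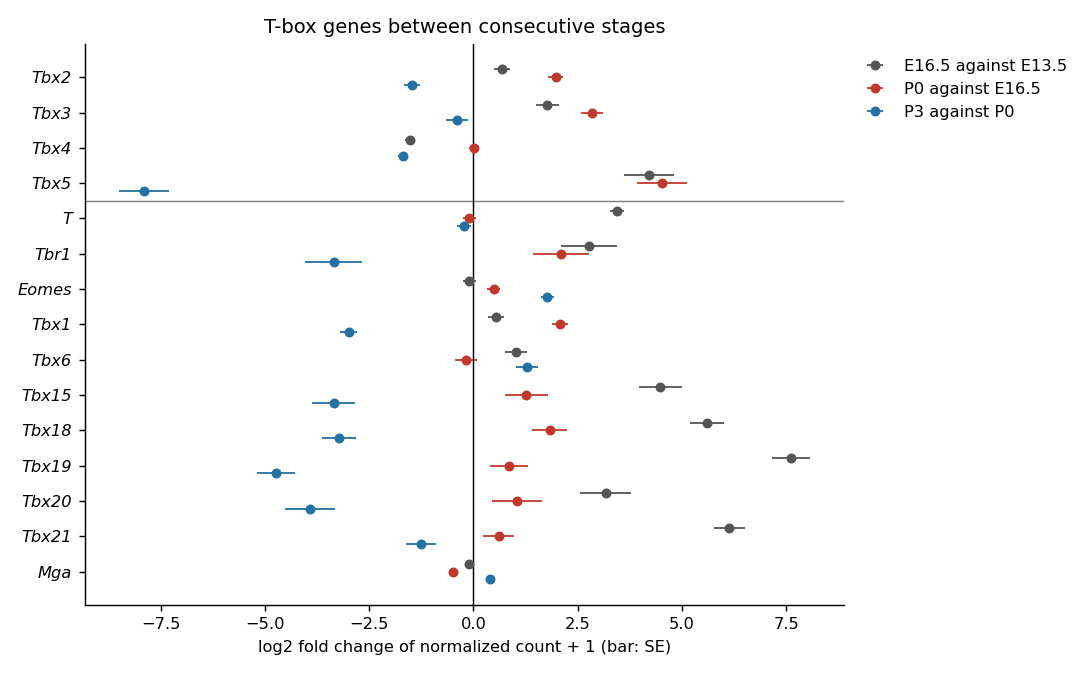
Log2 fold changes of normalized count + 1 (horizontal axis) with SE bars for the 4 members (above the line) and the 11 other T-box genes that passed the filter, for the 3 consecutive comparisons. Blue points, P3 against P0, lie left of 0 for all 4 members and for 8 of the 11 others, farthest for Tbx5 at -7.90, and fitted values of genes at 0 in a stage depend on the added 1.

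Genes that Tbx2 and Tbx3 repress in other tissues did not move as a group. Of 10 such genes 9 passed the filter. Between E13.5 and E16.5, 5 rose and 4 fell, with a median log2 fold change of 0.52 against 0.31 over all genes. From E16.5 to P0, the interval in which both repressors were higher, 3 rose and 1 fell, with a median of -0.06 against -0.01. The move to P3 saw 5 rise and 3 fall, with a median of 0.19 against 0.05. Of all genes tested, 45.5% rose and 34.6% fell from E13.5 to E16.5, and 27.6% and 33.4% from E16.5 to P0. From P0 to P3 it was 40.1% and 36.4%. With equal library totals 7 were higher and none lower from E16.5 to P0 (12743 and 3443 of all 23221 genes). On that scale 3 were higher and 5 lower from P0 to P3. The medians were then 0.60 against 0.68 over all genes, and -0.65 against -0.86.

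Cdkn1a, the p21 cell cycle inhibitor that Tbx2 and Tbx3 repress in several cell types, was low at E16.5 and P0 and high before and after. It had 1817, 1972 and 2149 normalized counts at E13.5, and 276, 294 and 373 at E16.5. It had 192, 221 and 209 at P0, then 1589, 1506 and 1336 at P3. The E13.5 and P3 libraries were all above those of E16.5 and P0, and the P0 libraries were lowest. At P3 the level of Tbx3 was high too, and there was more Tbx2 than at E16.5. A relation between Cdkn1a and these members was not tested, and bulk RNA does not show which cells held each transcript. From E13.5 to E16.5 Cdkn1a fell by 2.66 on the log2 scale (SE 0.12, limma adjusted p = 3.68e-12), and from P0 to P3 it rose by 2.83 (adjusted p = 2.94e-12). Its fall by 0.59 from E16.5 to P0 (adjusted p = 5.25e-04) turned sign with equal library totals.

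Its relative Cdkn1c, the p57 inhibitor, went the other way at birth. It had 1968, 1674 and 1977 at E16.5, 5790, 6074 and 6429 at P0, and 1498, 1485 and 1259 at P3. All P0 libraries were above those of the other stages, as they were for Tbx2 and Tbx5. The rise from E16.5 to P0 was 1.71 on the log2 scale (SE 0.09, limma adjusted p = 6.33e-11), and it fell by 2.11 from P0 to P3 (adjusted p = 1.82e-12). Cdh1, the E-cadherin gene, fell from 8081 ± 687 at E13.5 to 715 ± 230 at E16.5 (adjusted p = 1.41e-12) and rose to 2429 ± 174 from P0 to P3 (adjusted p = 3.89e-09). Gja1, a gap junction gene of Sertoli and many other cells, had 1784 to 4959 at P0, where library 4 overlapped with E16.5.

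Cdkn1a and Nppa, both on this list, hold the core T-box motif near an annotated start. The motif AGGTGTGA was sought on both strands from 250 bases before to 50 after the start in RefSeq promoters of GRCm38.p6, and 419 of 32851 promoters (1.28%) held it. Of the listed genes 58 had a promoter in the table and 2 held the motif. These are counts of genes, some with several promoters, while the 1.28% is a share of promoters. Cdkn1a had 2 promoters, of which 1 held the motif. The promoter of Tbx4, the member with a promoter in that table, did not hold these letters in this window. The 100 bases of each match are shown because they hold the motif, in capitals. In Cdkn1a (chr17:29093699-29093798, plus strand, from -70 to 30 around the start) the motif begins 14 bases after the start. In Nppa (chr4:148000472-148000571, plus strand, from -250 to -151), the gene of atrial natriuretic peptide, it lies at -250 and reads TCACACCT, its reverse complement. A match is a description of letters and not of binding.
Cdkn1a: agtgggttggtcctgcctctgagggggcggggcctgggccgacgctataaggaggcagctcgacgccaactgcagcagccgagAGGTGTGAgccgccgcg
Nppa: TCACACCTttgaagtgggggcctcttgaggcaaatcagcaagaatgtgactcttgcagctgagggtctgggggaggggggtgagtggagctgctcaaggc

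Nppa, a heart gene that Tbx5 activates and Tbx2 and Tbx3 repress, was not read in quantity. It had 8 reads over the P0 libraries, 1 over those of E16.5, 2 over those of P3 and none at E13.5, and did not pass the filter.

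Of 12 genes that Tbx4 or Tbx5 activate in other tissues, 11 passed the filter. Between E13.5 and E16.5, 5 rose and 4 fell, with a median log2 fold change of 0.20 against 0.31 over all genes. By P0, against E16.5, 5 rose and 1 fell, with a median of 0.45 against -0.01. The move to P3 saw 2 rise and 7 fall, with a median of -0.91 against 0.05. Of all genes tested, 45.5% rose and 34.6% fell from E13.5 to E16.5, and 27.6% and 33.4% from E16.5 to P0. From P0 to P3 it was 40.1% and 36.4%. With equal library totals 9 were higher and 1 lower from E16.5 to P0 (12743 and 3443 of all 23221 genes). The median was then 1.12 against 0.68 over all genes.

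Fgf10, the growth factor of limb and lung buds and a known target of Tbx4 and Tbx5, was also high at P0 alone. It had 19.0, 15.2 and 10.5 normalized counts at E13.5, and 18.1, 15.8 and 16.6 at E16.5. It had 251, 267 and 201 at P0, then 16.47, 15.7 and 17.2 at P3. The P0 libraries were all more than 10 times above every other library, and the other 3 stages overlapped. It rose by 3.75 on the log2 scale from E16.5 to P0 (SE 0.31, limma adjusted p = 1.93e-08) and fell by 3.78 from P0 to P3 (adjusted p = 8.32e-09). From E13.5 to E16.5 its change of 0.20 did not pass the test (adjusted p = 0.556).

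Other genes of this list had other patterns. Wnt2, a lung and heart mesenchyme signal, rose by 4.78 on the log2 scale from E13.5 to E16.5 (limma adjusted p = 1.81e-09), to 106 ± 36.9 normalized counts, and had 144 ± 23.7 at P0. It fell by 2.57 from P0 to P3 (adjusted p = 5.03e-06). Osr1, a factor of heart and kidney progenitors, was at 0 at E13.5 and was at least 20.5-fold higher at E16.5, with 65.5 ± 16.9. Bmp4 was highest at E13.5 with 1196 ± 154, had 356 ± 14.2 at E16.5 and 488 ± 23.3 at P0, and fell to 164 ± 22.9 at P3 (adjusted p = 7.57e-09 from P0). Sall4, abundant in germ cells, had 12639 ± 94.5 at E13.5 and 4554 ± 75.8 at P0, its lowest mean.

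**Figure D5:**
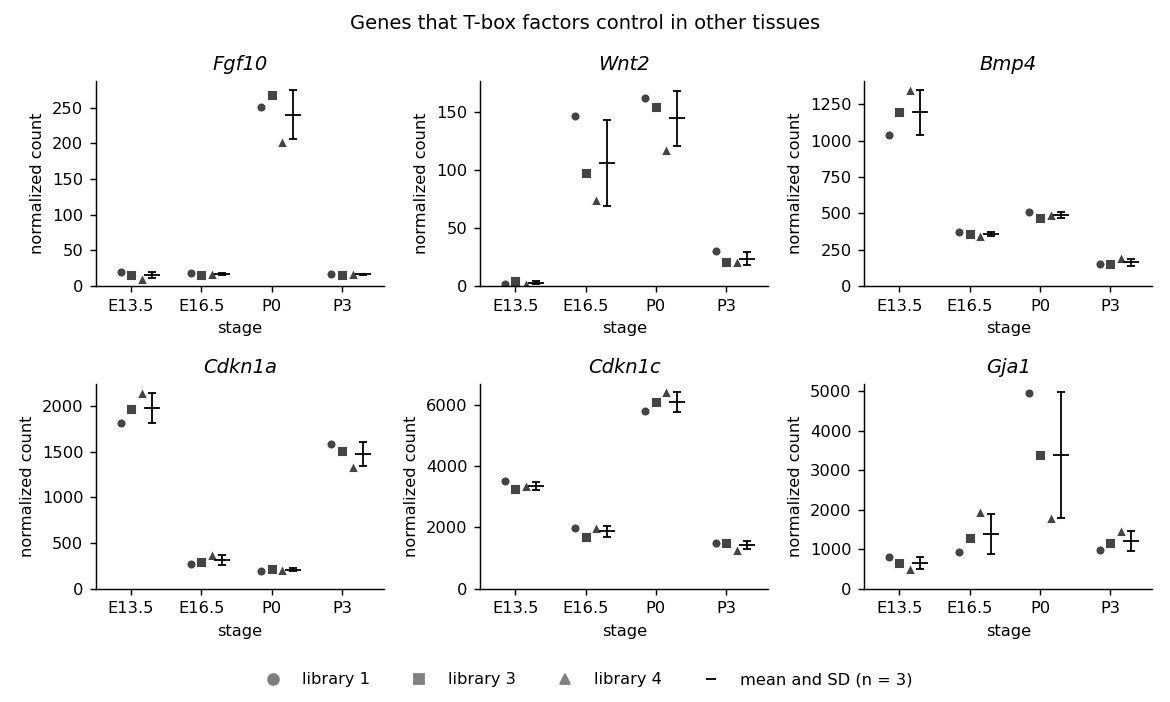
Normalized counts (linear vertical axes that start at 0, scaled per gene) of 6 genes that T-box factors control in other tissues, with a point per library and mean and SD of 3 per stage. Fgf10 lies at 201 to 267 at P0 and at 10.5 to 19.0 elsewhere, and Cdkn1a lies at 192 to 373 at E16.5 and P0 and at 1336 or more at E13.5 and P3.

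Genes of proteins that bind T-box factors had no shared direction over the stages. All 16 passed the filter. From E13.5 to E16.5, 7 rose and 8 fell, from E16.5 to P0, 6 rose and 7 fell, and from P0 to P3, 9 rose and 5 fell. Of all genes tested, 45.5% rose and 34.6% fell from E13.5 to E16.5, and 27.6% and 33.4% from E16.5 to P0. From P0 to P3 it was 40.1% and 36.4%. With equal library totals 13 were higher and 2 lower from E16.5 to P0 (12743 and 3443 of all 23221 genes). On that scale 4 were higher and 9 lower from P0 to P3. The median log2 fold changes were then 0.62 against 0.68 over all genes, and -0.48 against -0.86. Mef2c, a MADS-box partner of Tbx5 in the heart, was highest at P0 with 2123 ± 93.6 normalized counts, against 62.5 ± 15.2 at E13.5, 590 ± 34.1 at E16.5 and 170 ± 20.2 at P3. It rose by 1.85 on the log2 scale from E16.5 to P0 (SE 0.16, limma adjusted p = 2.79e-08) and fell by 3.64 from P0 to P3 (adjusted p = 2.80e-12). Nkx2-5, the homeodomain partner of Tbx5 in the heart, had 2.83 ± 1.19 at E13.5, 32.4 ± 1.43 at E16.5, then 82.7 ± 7.51 at P0 and 34.4 ± 16.7 at P3, its E13.5 mean below the 3-read floor. Gata4, a factor of Sertoli cells and of the heart, had 1187 ± 413 at P0 and overlapped with E16.5. Hdac1, a corepressor of Tbx2, fell by 2.43 on the log2 scale from E13.5 to E16.5 (adjusted p = 6.64e-14) and rose by 2.04 from P0 to P3 (adjusted p = 9.13e-13).

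Genes listed as upstream of T-box factors in limb and heart, among them Bmp4 from the activated genes above, were mostly highest at birth. Of 19 genes 18 passed the filter, and 12 of the 19 had their highest mean at P0, against 29.9% of all genes tested. Between E13.5 and E16.5, 14 rose and 2 fell, with a median log2 fold change of 1.93 against 0.31 over all genes. By P0, against E16.5, 11 rose and 2 fell, with a median of 1.09 against -0.01. The move to P3 saw 2 rise and 13 fall, with a median of -2.26 against 0.05. Of all genes tested, 45.5% rose and 34.6% fell from E13.5 to E16.5, and 27.6% and 33.4% from E16.5 to P0. From P0 to P3 it was 40.1% and 36.4%. With equal library totals the counts from E16.5 to P0 were 17 higher and 1 lower, over 19 genes tested. Of all 23221 genes, 12743 were then higher and 3443 lower, and the medians were 1.85 for the list and 0.68 over all genes.

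Hoxa4 and Hoxa5, which activate Tbx5 in the forelimb field, also had their highest mean at P0. Hoxa4 was at 0 at E13.5, and had 25.3 ± 1.87 normalized counts at E16.5, then 166 ± 14.3 at P0 and 6.61 ± 4.45 at P3. It rose by 2.66 on the log2 scale from E16.5 to P0 (SE 0.46, limma adjusted p = 9.83e-05) and fell by 4.67 from P0 to P3 (adjusted p = 9.59e-08). Hoxa5 had 33.9 ± 6.0 at P0 and was at least 11.4-fold lower at P3. Hoxb5, of the same forelimb group, did not share this pattern and was highest at P3, with 440 ± 48.1 against 63.8 ± 5.53 at P0.

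Hoxc9 and Pitx1 belong to the hindlimb side, where Hoxc9 restricts Tbx5 and Pitx1 activates Tbx4. Hoxc9 was at 0 at E13.5, at least 86.4-fold higher at E16.5 (276 ± 25.2) and at 215 ± 37.9 at P0. Pitx1 was low throughout, at 4.61 ± 0.581 at E13.5 and 34.7 ± 7.93 at P0. Isl1, upstream of hindlimb outgrowth, had 1329 ± 212 at E16.5 and 1075 ± 109 at P0, and fell by 3.06 on the log2 scale to P3 (limma adjusted p = 1.00e-11). Bmp2, which induces Tbx2 in the heart, had 311 ± 36.1 at P0 and fell by 3.51 to 27.0 ± 8.16 at P3 (adjusted p = 3.72e-09). Aldh1a2, the retinoic acid enzyme upstream of Tbx5 in the forelimb field, had 5908 ± 378 at P0 and 1525 ± 85.8 at P3.

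The naive pluripotency genes studied with Tbx3 in stem cells were mostly highest early. Of 14 genes, 9 had their highest mean at E13.5, against 30.7% of all genes tested. Tbx3 was lowest at that stage. Between E13.5 and E16.5, 4 rose and 10 fell, with a median log2 fold change of -1.59 against 0.31 over all genes. From E16.5 to P0, 5 rose and 7 fell, and from P0 to P3, 5 rose and 7 fell. The latter counts were none higher and 11 lower with equal library totals, with a median of -1.15 against -0.86. Of all genes tested, 45.5% rose and 34.6% fell from E13.5 to E16.5, and 27.6% and 33.4% from E16.5 to P0. From P0 to P3 it was 40.1% and 36.4%. Nanog had 3615 ± 396 normalized counts at E13.5, 238 ± 55.3 at E16.5, then 62.9 ± 1.80 at P0 and 2.64 ± 0.610 at P3. It was at least 21.2-fold lower at P3 than at P0. Tbx3 had 229 ± 53.5 at P3, and a relation between the levels of Nanog and Tbx3 was not tested.

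The genes whose levels ran most like each member were named by Pearson's r on log2(normalized count + 1) over the 12 libraries, among 13480 genes. The points share stages, so these values are a description. For Tbx2 they were Rom1 (r = 0.990), a photoreceptor membrane gene with 770 ± 6.35 normalized counts at P0, Tpm2 (0.986), a tropomyosin of muscle, and Ebf2 (0.986), a factor of mesenchymal precursors. For Tbx3 they were Crtac1 (0.991), an extracellular matrix gene, Frzb (0.990), a secreted Wnt antagonist with 489 ± 36.2 at P0 and 288 ± 37.6 at P3, and Bfsp1 (0.989), a lens filament gene. For Tbx4 they were Slc25a23 (0.997), a mitochondrial carrier with 885 ± 17.5 at E13.5 and 102 ± 17.1 at P3, Kif21a (0.995), a kinesin, and Cdc42ep5 (0.994), a Cdc42 effector. For Tbx5 they were Krt79 (0.991), a keratin with 947 ± 32.5 at P0 and 50.5 ± 13.1 at P3, Car13 (0.985), a carbonic anhydrase, and Stoml3 (0.983), a stomatin relative. At E13.5, where Tbx5 had no reads, Krt79 had 30.9 ± 6.51, Car13 had 12.1 ± 3.45 and Stoml3 had 3.58 ± 2.76, from 10 reads over 3 libraries.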

How the data were processed

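Transcripts were measured by RNA sequencing in 12 libraries of male germ cells, 3 per stage. The kits were SMART-seq v4 and TruSeq mRNA, per the labels' protocols. The submitters' processing notes name bcl2fastq 2.20, cutadapt 1.18, HISAT2 2.1.0, featureCounts 1.5.2 and DESeq2 1.26.0 and the builds mm10 and GRCm38. The strand setting is not given in the sources used here. The authors deposited a signal per gene, a read count divided by a size factor per library (RLE, relative log expression). All values (100%) were whole multiples of 1 read per library within a tolerance of 0.001, so reads were recovered.

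Columns name a stage and the numbers 1, 3 or 4, which differ from those in the titles, so columns carry a stage but no replicate of the labels. Replicates differed beyond counting noise (chi-square per gene 5.44 to 19.1), so none was counted as a duplicate. Symbols came from a GENCODE table (99.4% of identifiers matched), gene models and exon lengths from GENCODE M21 on GRCm38, promoters from RefSeq on GRCm38.p6. Coding sequences of the members were aligned with MAFFT. The sequence of 1 member is not reported here.

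The main test was limma 3.58.1 in R 4.3.3 (lmFit, eBayes with a trend) on log2(normalized count + 1), on 22384 genes with at least 10 in at least 3 libraries, with all stages in 1 fit, 8 residual degrees of freedom, and Benjamini-Hochberg adjusted p under 0.05 over all genes tested. A fold change on this scale understates the change of low genes. Members were not tested. Folds against a stage with at most 3 reads in every library are lower bounds. Reads of amplified RNA without molecular identifiers are not independent molecules, so intervals and floors hold for counting error alone. On simulated data with 200 genes changed 4-fold at P0, limma recovered 98.5% to 99.5% in the 3 comparisons tested that involve P0, of 21212 genes. False calls numbered 4 from E16.5 to P0, 10 from P0 to P3 and 16 from E13.5 to P0. The simulation took the size factors as known and changed few genes, so it does not test the scaling. Alternative tests on the recovered reads were the quasi-likelihood test of edgeR 4.0.16 and DESeq2 1.42.0.

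Members, lists and tests were chosen with earlier results of these data known. Named genes are the members, the genes of 6 lists past the threshold with the largest change or a known direct relation to a member, the nearest genes of the 2 loci, and the 3 genes with the highest correlation with each member among those with a mean of at least 100 in their highest stage. Other steps ran in Python 3.11.15 (pandas 2.3.3, numpy 2.4.6, matplotlib 3.10.9, scipy 1.17.1).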

Additional observations from a re-analysis of the deposited data

How the results depend on the processing

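No paired analysis was possible because no column could be matched to a replicate number of the titles. The 20 log2 fold changes of the members gave 438 values over the alternatives. Of these, 393 moved by less than the spread between libraries, 42 moved by more and 3 changed sign. The sign changes all concern Tbx4 from E16.5 to P0 (0.012): -0.019 with poscounts factors, -0.067 without E16.5 library 1 and -0.0097 without P0 library 1, with a range of -0.067 to 0.071 over the libraries left out in turn, and the cause was not tested. The scaling mattered most at P0. Equal library totals shifted the median of all genes to 0.84 from E13.5 to E16.5, 0.68 from E16.5 to P0 and -0.86 from P0 to P3, and gave Tbx4 0.67 from E16.5 to P0, -0.34 from E13.5 to P0 (against -1.51) and Tbx3 -1.23 from P0 to P3 (against -0.39). Relative to the median of all genes, Tbx3 from P0 to P3 kept -0.44 to -0.37 and Tbx4 from E13.5 to P0 -1.84 to -1.70 over 5 scalings. The share of called genes that were higher was 56.8% from E13.5 to E16.5, 45.2% from E16.5 to P0 and 52.4% from P0 to P3, and 70.1%, 78.7% and 25.2% with equal totals. Log2 fold changes of Tbx5 against stages near 0 depend on the added count: from P0 to P3, -10.19 with 0.1 and -5.27 with 10. Fewer genes are tested with a mean of at least 100, which gave 11459 changed genes from E13.5 to E16.5 (against 17932), 11249 from P0 to P3 (17122) and 11968 from E13.5 to P0 (19280). A log2 fold change of at least 1 gave 7604 from E16.5 to P0 (13658) and 10138 from E16.5 to P3 (15550). Leaving out each library in turn gave 17149 to 17935, 11827 to 13830, 15646 to 17217, 18099 to 19229 and 14613 to 15670 changed genes in the comparisons E13.5 to E16.5, E16.5 to P0, P0 to P3, E13.5 to P0 and E16.5 to P3. Depth limits Tbx5 outside P0, where 3 reads per library are the floor.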
